A study of Saccharomyces cerevisiae with 14 samples.

Results

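The genes described here are 10 genes of methionine and sulfate assimilation in budding yeast, out of 5871 nuclear protein-coding genes measured. They were taken as a fixed list of MET3, MET14, MET16, MET10, MET2, MET13, MET6, SAM1, SAM2 and MET28, and every nucleosome call from 1000 bp before the start codon to the stop codon of each was read, at coordinates of sacCer3 (assembly R64). Nucleosomes had been mapped by MNase-seq, in which micrococcal nuclease digests linker DNA and leaves the DNA held by nucleosomes, to ask how regions of Snf2, the ATPase of the SWI/SNF chromatin remodeller, shape nucleosome positions. The series has 14 samples, and the authors merged replicates into 1 list of calls per strain, so no value below has a replicate check and no test between strains could be made. The pathway was chosen by measured values: MET6 and MET13 had among the lowest promoter ratios of CD or dSnf2 to WT in these same lists. Promoter values of the 10 genes are therefore given as a description with no test.

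All strains are of the BY4741 background, grown in rich YPD medium at 30 °C and crosslinked with formaldehyde. The dAT strain is read here, from its name and the series title, as lacking the AT-hook region of Snf2 (3 samples, of which replicates 2 and 3 were merged). The dSnAC strain is read from its name as lacking the SnAC domain (3 samples, replicates 1 and 3 merged). The CD strain carries Snf2 with K798A, which leaves it catalytically dead (3 samples, replicates 1, 2 and 3 merged). The dSnf2 strain has SNF2 deleted (2 samples, both merged), and WT carries intact SNF2 (3 samples, all merged). The labels do not say whether a mutant is 1 clone. All 5 strains share the BY4741 lesion in MET17, the O-acetylhomoserine sulfhydrylase, and MET17 had 0 calls in each of the 5 lists. The SNF2 coding region held 124 reads in dSnf2 (mean occupancy 0.00559) and between 13067 and 24346 reads in the other mutants, against 23730 reads in WT (0.663).

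Yeast cells take up sulfate, activate it with ATP, reduce it to sulfide and join the sulfide to a carbon backbone, which is then methylated to methionine and converted to S-adenosylmethionine, the cell's main methyl donor. The genes of this pathway are activated together by Met4, which has no DNA binding of its own and is held at promoters by Cbf1 and by Met31 or Met32, with Met28 as a stabilising partner. They are known to be repressed when methionine is plentiful, as in rich medium. The MET17 lesion blocks the step that takes up sulfide, so these strains depend on methionine from the medium.

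Each list gave a dyad (the centre of a nucleosome), an occupancy and the SD of the dyad positions behind each call. Occupancies were divided by the file's median call, so that 1 is the occupancy of the median call, and each call was drawn as a footprint of nucleosome length around its dyad. Read numbers are occupancies in steps of the smallest value of each list. The lists held 39312292 reads in dAT, 31881933 in dSnAC, 59767406 in CD, 41240133 in dSnf2 and 64981328 in WT. Over the 10 genes there were 138 calls in dAT, 139 in dSnAC, 138 in CD, 137 in dSnf2 and 136 in WT. These calls held 86868 reads in dAT, 69886 in dSnAC, 121577 in CD, 81687 in dSnf2 and 145860 in WT. The profiles are averages over a culture, so fewer cells with a nucleosome and a less well protected nucleosome cannot be told apart. Intervals given with ± are 95% intervals of counting error only and say nothing about differences between cultures. Their widths are for a ratio of reads with no constant added, so they are only a guide to the ratios defined below.

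Most promoters of the 10 genes held less nucleosome signal in the Snf2 mutants than in WT. In CD and dSnf2 the promoter ratios of MET3 and MET2 were among the lowest of the genome. So were those of MET6 and MET13, which had been noticed for this. A promoter is taken as the 300 bp ahead of the start codon, its value as the mean occupancy of those bases, and ratios are log2((mutant + 0.1) / (WT + 0.1)), which understates differences at low occupancy. The median promoter ratio of the 10 genes was -0.44 in dAT and -0.36 in dSnAC, -0.40 in CD and -0.31 in dSnf2. Over all 5871 genes it was -0.30 in dAT and -0.23 in dSnAC, -0.15 in CD and -0.08 in dSnf2, so most yeast promoters were lower than in WT. Relative to the median gene, the 10 genes lay at -0.14 in dAT and -0.13 in dSnAC, -0.25 in CD and -0.22 in dSnf2. Without MET6 and MET13, the remaining 8 lay at -0.14 in dAT and -0.18 in dSnAC, -0.21 in CD and -0.17 in dSnf2. All of these ratios share the same WT list, as do the displacements from WT given below.

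A ratio at or below -0.58 was reached by 4 of the 10 genes in dAT, where 11% of all genes did so, and by 3 of 10 in dSnAC, where 3.76% did. It was reached by 4 of 10 in CD against 0.63% of all genes, and by 3 of 10 in dSnf2 against 0.307%. MET6 and MET13, whose low ratios drew attention to the pathway, are among those of CD and dSnf2, and without them the counts were 2 in CD and 1 in dSnf2, so nothing is read from the contrast with all genes. The counts also rest on the settings: with a pseudocount of 0.25 they were 2 in dAT and 0 in dSnAC, 1 in CD and 1 in dSnf2. Centred on the median gene they were 0 in dAT (1.12% of all genes) and 0 in dSnAC (0.477%), 0 in CD (0.204%) and 1 in dSnf2 (0.119%). A window of 500 bp gave 0 in dSnAC and 2 in CD. The shares of all genes with that pseudocount and window are not given here, so those counts are not set against the genome. MET3 was the one gene of the list to reach -0.58 in all 4 mutants, as 4 of the 5871 genes did (0.0681%). The values nearest to the limit were -0.60 for MET2 in dAT and in dSnAC inside it, and -0.55 for MET14 in dAT and -0.54 for MET2 in dSnf2 outside it. Below WT, by any amount, were 10 of the 10 promoters in dAT (90% of all genes) and 10 in dSnAC (89.1%), 9 in CD (87.1%) and 8 in dSnf2 (80.4%). None of the 10 promoters reached 0.58 in any mutant, where 0.204% of genes did so in dAT and 0.307% in dSnAC, 0.528% in CD and 0.715% in dSnf2. MET2, MET3, MET6, MET13, MET14, MET16 and SAM2 were below the median gene in all 4 mutants, as 30.5% of genes were.

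Over gene bodies the list as a whole lay near the genome in dAT and dSnAC and lower in CD and dSnf2. The median body ratio of the 10 genes was 0.05 in dAT and 0.01 in dSnAC, -0.12 in CD and -0.17 in dSnf2, where all genes had 0.03 in dAT and 0.03 in dSnAC, 0.01 in CD and -0.003 in dSnf2. Below WT were 4 of the 10 bodies in dAT (40.7% of all genes) and 5 in dSnAC (41.2%), 7 in CD (43.9%) and 8 in dSnf2 (51.7%). MET6 and MET13, noticed for low promoter ratios in CD or dSnf2, are among these in CD and dSnf2. Without them the median body ratio was -0.10 in CD and -0.12 in dSnf2, with 5 and 6 of 8 bodies below WT. None of the 10 bodies was at or below -0.58, as 0.647% of genes were in dAT and 0.273% in dSnAC, and 0.119% in CD and 0.119% in dSnf2. The one body at or above 0.58 was SAM1 in dAT, where 0.818% of genes were so high; in dSnAC 0.46% of genes were, in CD 0.392% and in dSnf2 0.255%.

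**Figure D1:**
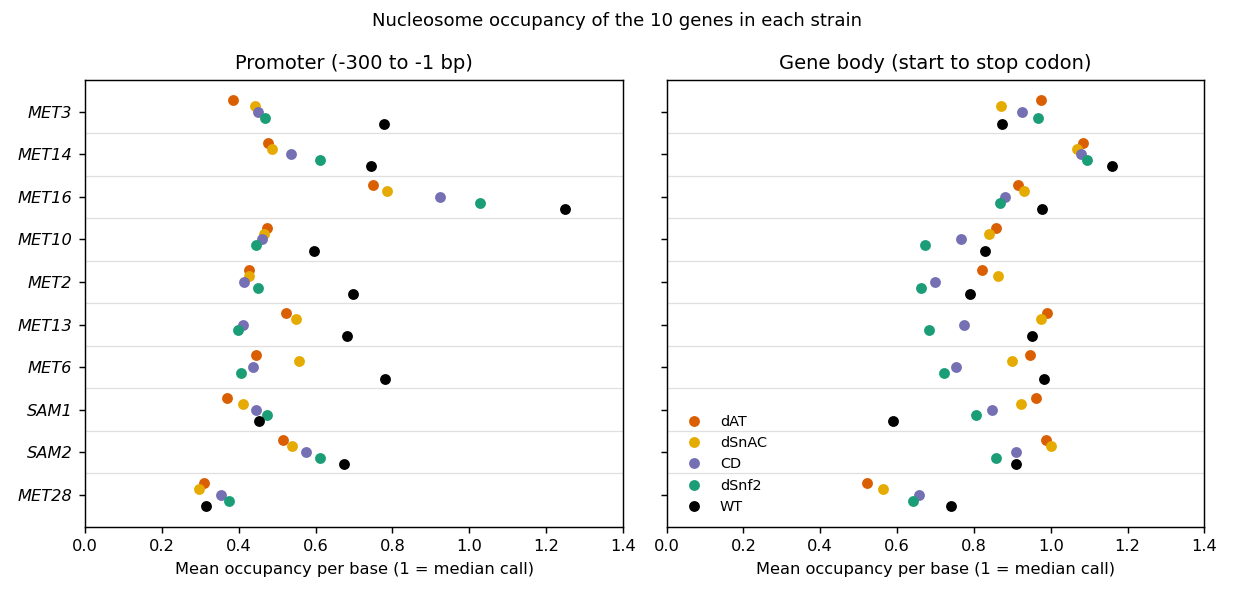
Mean occupancy per base (1 = the file's median call) of the 10 genes in the promoter (left) and gene body (right), 1 point per strain, from dAT at the top of each row to WT at the bottom. MET3, MET6 and MET2 promoters are lower in every mutant than in WT (MET3 at most 0.468 in a mutant and 0.777 in WT). So are those of SAM2, MET10, MET13, MET14 and MET16. The SAM1 body is higher in every mutant (at least 0.806) than in WT (0.589).

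**Figure D2:**
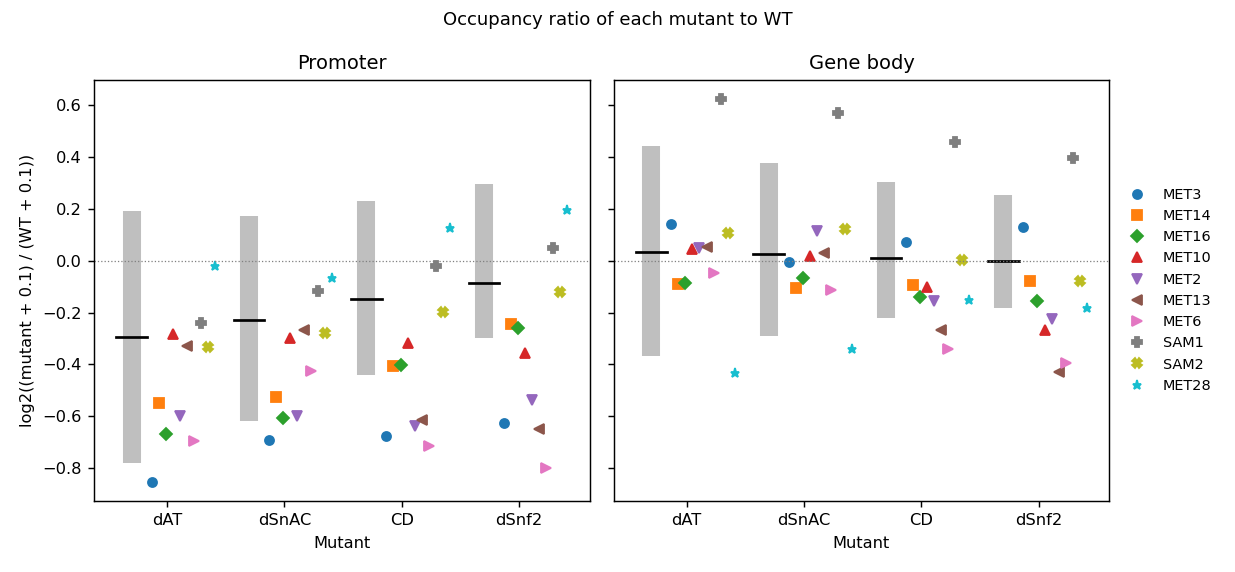
log2 occupancy ratio of each mutant to WT for the 10 genes (symbols), beside the central 95% of all 5871 genes (grey bar) and their median (black line), for promoters (left) and gene bodies (right). MET3, MET6, MET13 and MET2 lie below the grey bar in CD and dSnf2 promoters, and SAM1 lies above it in all 4 gene body columns. MET6 and MET13 had been noticed for low promoter ratios in these lists.

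The first genes act on sulfate itself. MET3 (YJR010W, chromosome X, 456239 to 457774, + strand, divergent from TDH2) encodes ATP sulfurylase, which activates sulfate. Its promoter occupancy was 0.386 in dAT and 0.443 in dSnAC, 0.449 in CD and 0.468 in dSnf2, against 0.777 in WT. The log2 ratios were -0.85 ± 0.14 in dAT and -0.69 ± 0.15 in dSnAC, -0.68 ± 0.12 in CD and -0.63 ± 0.13 in dSnf2. Only 1.53% of genes in dAT and 1.36% in dSnAC, 0.307% in CD and 0.17% in dSnf2 had a ratio as low.

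The MET3 call that differed most in dAT, dSnAC and CD was a promoter nucleosome. In WT it lay at -229 bp with an occupancy of 0.686 and 707 reads. At the same place, within 1 bp, the occupancy was 0.16 in dAT, 0.30 in dSnAC and 0.26 in CD, which is -2.10, -1.20 and -1.40 as log2 of mutant over WT with no constant added. In dSnf2 no call matched it, and the nearest promoter call lay at -147 bp with an occupancy of 0.352. The next nucleosome, at -25 bp in WT, was centred at -20 bp in dAT and -15 bp in dSnAC, -12 bp in CD and 2 bp in dSnf2. With a window of 200 bp in place of 300 bp, the promoter ratio was -0.62 in dAT and -0.59 in dSnAC, but -0.52 in CD and -0.28 in dSnf2.

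MET14 (YKL001C, chromosome XI, 438777 to 439385, - strand) encodes adenylylsulfate kinase, which phosphorylates the activated sulfate. Its promoter held 0.476 in dAT and 0.486 in dSnAC, 0.536 in CD and 0.613 in dSnf2, against 0.743 in WT. On the log2 scale these were -0.55 ± 0.13 in dAT and -0.53 ± 0.14 in dSnAC, -0.41 ± 0.11 in CD and -0.24 ± 0.12 in dSnf2. Of the mutants, dSnf2 had the value nearest to that of WT. The call at -86 bp in WT had an occupancy of 0.950 in dAT and 0.971 in dSnAC, 1.06 in CD and 1.21 in dSnf2, against 1.45 in WT.

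MET16 (YPR167C, chromosome XVI, 876847 to 877632, - strand, divergent from NUT2) encodes the reductase that turns the phosphorylated sulfate into sulfite. It had the fullest promoter of the 10 in every strain, with 0.750 in dAT and 0.787 in dSnAC, 0.923 in CD and 1.03 in dSnf2, against 1.25 in WT, where 98.7% of genes lay at or below it. Its log2 ratios followed the same order of strains as those of MET14, with -0.67 ± 0.11 in dAT and -0.61 ± 0.11 in dSnAC, -0.40 ± 0.09 in CD and -0.26 ± 0.09 in dSnf2. Both promoter nucleosomes were lower. The one at -80 bp held 0.733 in dAT and 0.804 in dSnAC, 0.966 in CD and 1.06 in dSnf2, against 1.35 in WT, and the one at -271 bp held 1.16, 1.19, 1.34 and 1.51 in the same mutants, against 1.72 in WT.

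MET10 (YFR030W, chromosome VI, 213312 to 216419, + strand, downstream of PTR3) encodes the alpha subunit of sulfite reductase, which makes sulfide. Its promoter held 0.473 in dAT and 0.466 in dSnAC, 0.459 in CD and 0.444 in dSnf2, against 0.597 in WT. Those ratios lay near the median gene in dAT (-0.28 ± 0.14), and in dSnf2 (-0.36 ± 0.14) 1.43% of genes were as low. With a window of 200 bp they were -0.10 in dAT and -0.12 in dSnAC, -0.15 in CD and -0.21 in dSnf2. More visible at MET10 was another place of the nucleosomes on the far side of its promoter. The call at -354 bp in WT lay at -384 bp in dAT and -388 bp in dSnAC, -389 bp in CD and -391 bp in dSnf2, and the call before it, at -530 bp in WT, lay at -553 bp, -554 bp, -556 bp and -558 bp in the same mutants. The nucleosome at -63 bp in WT lay within 3 bp of that place in each mutant, so the distance between dyads across the promoter was 320 bp in dAT and 322 bp in dSnAC, 323 bp in CD and 327 bp in dSnf2, against 291 bp in WT. A widest gap wider by 20 bp or more was seen in 8.05% of genes in dAT and 6.82% in dSnAC, 5.83% in CD and 5.51% in dSnf2. All MET10 calls involved held at least 504 reads.

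The next genes build and methylate the carbon backbone. MET2 (YNL277W, chromosome XIV, 117349 to 118809, + strand, downstream of YNL277W-A) encodes homoserine O-acetyltransferase, which prepares the backbone. Its promoter held 0.427 in dAT and 0.427 in dSnAC, 0.412 in CD and 0.450 in dSnf2, against 0.698 in WT, so the 4 mutants lay close together and all below WT. As log2 ratios these were -0.60 ± 0.14 in dAT and -0.60 ± 0.15 in dSnAC, and -0.64 ± 0.12 in CD and -0.54 ± 0.14 in dSnf2. A window of 500 bp gave -0.38 in CD and -0.32 in dSnf2. The nucleosome at -142 bp had an occupancy of 0.815 in dAT and 0.757 in dSnAC, 0.764 in CD and 0.844 in dSnf2, against 1.23 in WT. A weak call further upstream, at -688 bp in WT, differed most of all MET2 calls, with 67 reads in dAT and 50 in dSnAC, 126 in CD and 39 in dSnf2, against 302 in WT. As log2 of the scaled occupancies, mutant over WT, these were -1.48 in dAT and -1.59 in dSnAC, -1.16 in CD and -2.31 in dSnf2.

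MET13 (YGL125W, chromosome VII, 272520 to 274322, + strand, downstream of SCS3) encodes a methylenetetrahydrofolate reductase, which makes the methyl group used for methionine. It was noticed for a low promoter ratio in CD or dSnf2, so its low values there are in part fixed by that choice. Its promoter held 0.522 in dAT and 0.550 in dSnAC, 0.411 in CD and 0.399 in dSnf2, against 0.682 in WT. This gave log2 ratios of -0.33 ± 0.13 in dAT and -0.27 ± 0.14 in dSnAC, near the median gene, and -0.62 ± 0.12 in CD and -0.65 ± 0.14 in dSnf2, where 0.443% of genes (CD) and 0.136% (dSnf2) were as low. With a window of 200 bp the ratio was -0.18 in dAT and -0.15 in dSnAC.

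In the MET13 gene body, CD and dSnf2 were also below dAT, dSnAC and WT. The body adjoins the promoter for which the gene was noticed, so it is no separate support. Body occupancy was 0.991 in dAT and 0.973 in dSnAC, 0.774 in CD and 0.682 in dSnf2, against 0.952 in WT. The log2 ratios were 0.05 ± 0.04 in dAT and 0.03 ± 0.04 in dSnAC, and -0.27 ± 0.04 in CD and -0.43 ± 0.05 in dSnf2, and in dSnf2 0.307% of genes were as low. The call at 341 bp, for example, held 1.64 in dAT and 1.56 in dSnAC, 1.21 in CD and 1.06 in dSnf2, against 1.64 in WT. The body calls also had more scattered dyads in the mutants, with a median dyad SD of 30.4 bp in dAT and 29.5 bp in dSnAC, 31.7 bp in CD and 33.5 bp in dSnf2, against 26.9 bp in WT.

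Upstream of MET13 the calls themselves differed. The promoter call lay at -154 bp in dAT (0.356) and -153 bp in dSnAC (0.414), at -180 bp in CD (0.276) and -179 bp in dSnf2 (0.329), and at -182 bp in WT (0.743). In WT there were further calls at -621 bp and -444 bp. CD and dSnf2 had calls within 4 bp of both, with lower occupancy, while in dAT and dSnAC no call matched either one and weak calls lay near -700 bp, -543 bp and -302 bp. The dAT and dSnAC promoter calls stood 148 bp from their upstream neighbour, which was the smallest spacing of calls in every list.

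MET6 (YER091C, chromosome V, 339864 to 342167, - strand, divergent from IES5) encodes the methionine synthase that transfers the methyl group. Its promoter held 0.444 in dAT and 0.556 in dSnAC, 0.437 in CD and 0.406 in dSnf2, against 0.781 in WT. In log2 ratios this was -0.70 ± 0.14 in dAT and -0.43 ± 0.14 in dSnAC, and -0.71 ± 0.12 in CD and -0.80 ± 0.14 in dSnf2, and 2 of the 5871 genes, MET6 included, were as low in dSnf2. MET6 too had been noticed for a low promoter ratio in CD or dSnf2, so that rank is only a description. The nucleosome at -166 bp held 0.455 in dAT (290 reads) and 0.621 in dSnAC (319 reads), 0.501 in CD (479 reads) and 0.502 in dSnf2 (331 reads), against 1.11 in WT (1140 reads). It lay within 8 bp of the same place in all 5 strains, with a lower signal in the 4 mutants.

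Along the MET6 body, occupancy was 0.947 in dAT and 0.900 in dSnAC, 0.754 in CD and 0.722 in dSnf2, against 0.982 in WT. On the log2 scale these were -0.05 ± 0.04 in dAT and -0.11 ± 0.04 in dSnAC, -0.34 ± 0.03 in CD and -0.40 ± 0.04 in dSnf2, with 0.375% of genes as low in dSnf2. The nucleosome over the start codon, at 6 bp in WT, held 0.805 in dAT and 0.728 in dSnAC, 0.725 in CD and 0.675 in dSnf2, against 1.07 in WT. Farther in, at 335 bp, dAT (1.23) and dSnAC (1.21) lay near WT (1.24), and CD (0.880) and dSnf2 (0.863) were lower.

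**Figure D3:**
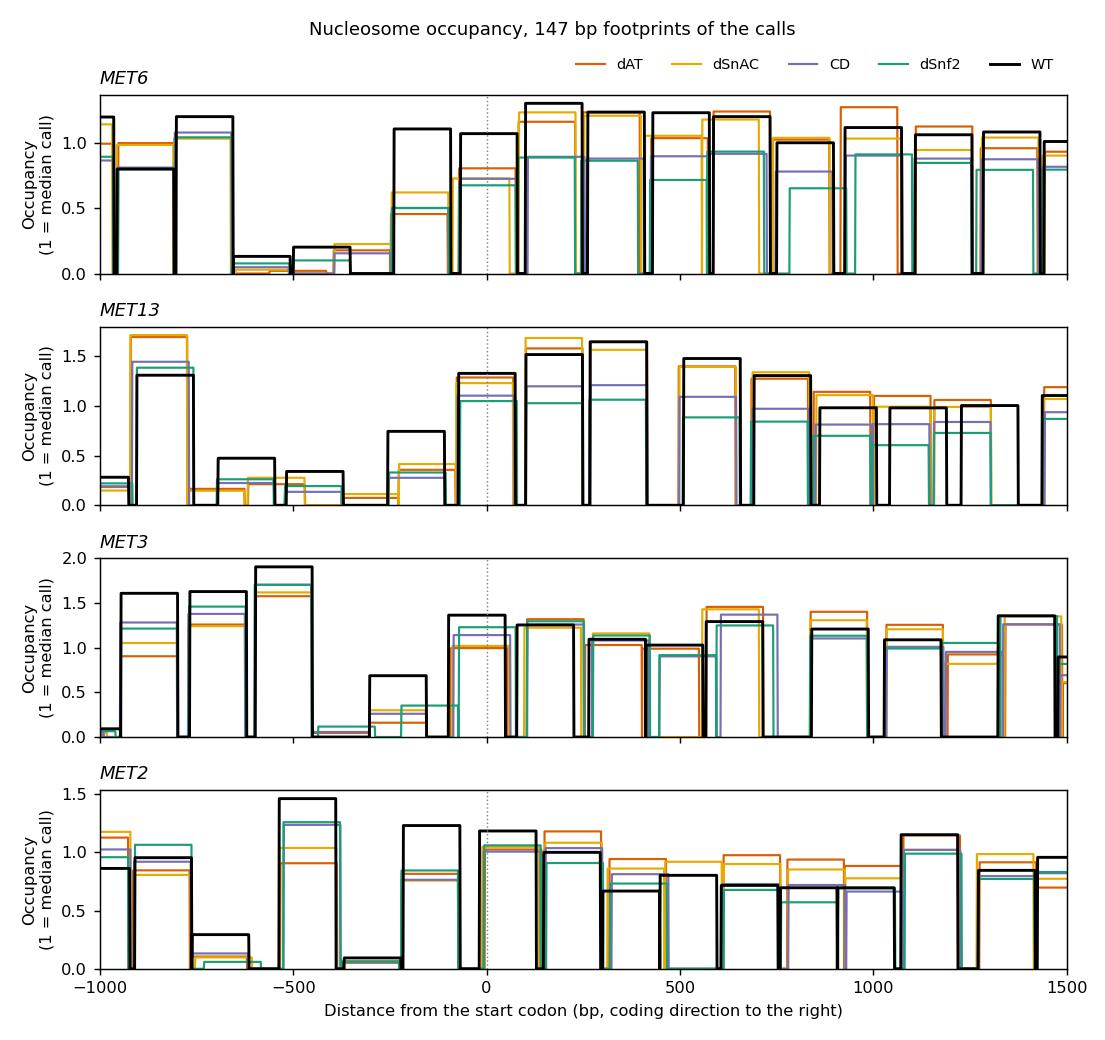
Occupancy (1 = the file's median call) along MET6, MET13, MET3 and MET2 by distance from the start codon in bp, 1 line per strain. The WT line stands above the mutants at the MET6 nucleosome at -166 bp (1.11 in WT, at most 0.621 in a mutant), and over the MET13 body the CD and dSnf2 lines run below dAT, dSnAC and WT.

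The mutants were also compared with each other at MET6 and MET13. The lists of CD and dSnf2 are those in which these promoters were noticed as low, so a high ratio over either is in part fixed by that choice. Between dAT and dSnf2 the MET13 promoter ratio was 0.32 and the MET6 promoter ratio 0.11, while the median of all genes was -0.22. In gene bodies the dAT to dSnf2 ratio was 0.48 ± 0.05 for MET13, 0.35 ± 0.04 for MET6, 0.31 ± 0.04 for MET10 and 0.27 ± 0.06 for MET2. The median over the 10 genes was 0.21 and that over all genes was 0.03, and MET28 was the lowest of the 10, at -0.25 ± 0.11. None of the 10 genes reached 0.58 or -0.58 in promoter or body between these strains, where 0.0681% of all genes were at or above 0.58 and 3.75% at or below -0.58 in promoters, and 0.46% and 0.426% in bodies. Between dSnAC and CD, the promoter ratios were 0.35 for MET13 and 0.29 for MET6, against a median of -0.08 over all genes.

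SAM1 and SAM2 encode the S-adenosylmethionine synthetases and are closely related copies, so how the authors' alignment divided reads between them is uncertain. In both, the nucleosomes of the gene body lay nearer the start codon in the mutants. SAM1 (YLR180W, chromosome XII, 515262 to 516410, + strand, divergent from YLR179C) had a promoter of 0.369 in dAT and 0.410 in dSnAC, 0.445 in CD and 0.473 in dSnf2, against 0.453 in WT. The log2 ratio in dAT was -0.24 ± 0.16, near the median gene, and those of the other mutants (-0.12 ± 0.16 in dSnAC, -0.02 ± 0.13 in CD, 0.05 ± 0.14 in dSnf2) were within counting error of 0. Its body held more, with 0.962 in dAT and 0.921 in dSnAC, 0.846 in CD and 0.806 in dSnf2, against 0.589 in WT, the lowest body value of the 10 genes in WT. As log2 ratios these were 0.62 ± 0.06 in dAT and 0.57 ± 0.06 in dSnAC, 0.46 ± 0.05 in CD and 0.40 ± 0.06 in dSnf2. As high, SAM1 included, were 32 of the 5871 genes in dAT and 33 in dSnAC, 44 in CD and 45 in dSnf2.

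All 6 matched body nucleosomes of SAM1 lay upstream of their WT place in every mutant. The median displacement was -34.5 bp in dAT and -29 bp in dSnAC, -43 bp in CD and -41 bp in dSnf2, where a negative value is toward the start of the gene. The nucleosome at 288 bp in WT lay at 231 bp in dAT and 229 bp in dSnAC, 228 bp in CD and 228 bp in dSnf2. Dyads were also less scattered, with a median dyad SD over body calls of 30.8 bp in dAT and 31.3 bp in dSnAC, 29.9 bp in CD and 27.8 bp in dSnf2, against 37.1 bp in WT. A median displacement as far upstream was found in 0.457% of genes in dAT and 0.563% in dSnAC, 0.299% in CD and 0.316% in dSnf2.

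SAM2 (YDR502C, chromosome IV, 1453310 to 1454464, - strand, downstream of LPP1) had all 7 matched body nucleosomes upstream of their WT place in each mutant. The median displacement was -20 bp in dAT and -21 bp in dSnAC, -21 bp in CD and -18 bp in dSnf2. Its body occupancy was 0.989 in dAT and 1.000 in dSnAC, 0.911 in CD and 0.856 in dSnf2, against 0.910 in WT, and its log2 body ratios lay between -0.08 and 0.12. The SAM2 promoter held 0.515 in dAT and 0.537 in dSnAC, 0.574 in CD and 0.611 in dSnf2, against 0.673 in WT. The part of shared reads in the SAM1 and SAM2 values was not tested.

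**Figure D4:**
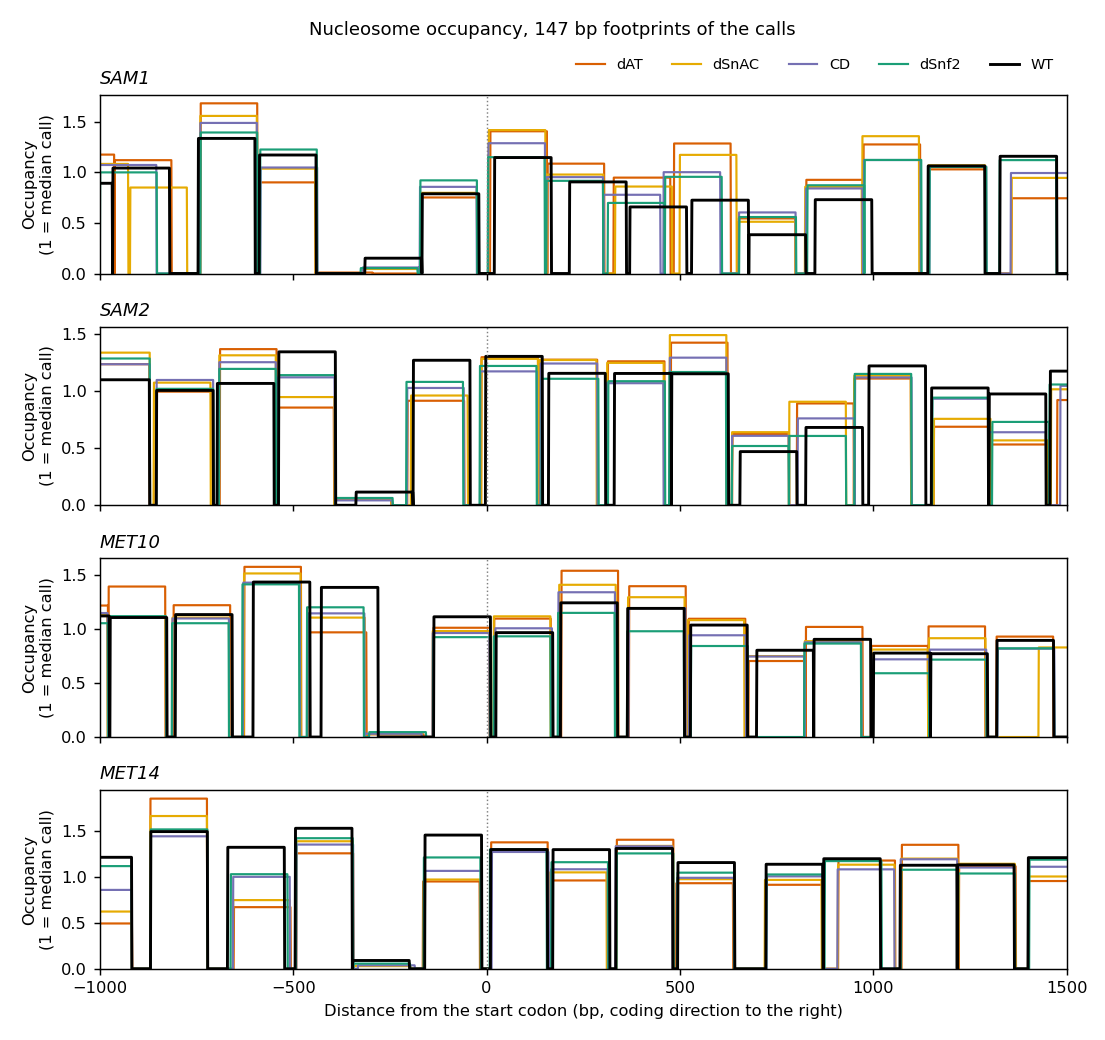
Occupancy (1 = the file's median call) along SAM1, SAM2, MET10 and MET14 by distance from the start codon in bp, 1 line per strain. Mutant peaks lie to the left of the WT peaks in the SAM1 and SAM2 bodies (228 to 231 bp in the mutants and 288 bp in WT for the SAM1 peak named in the text), and the MET10 nucleosome at -354 bp in WT lies at -384 to -391 bp in the mutants.

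MET28 (YIR017C, chromosome IX, 383556 to 384119, - strand, divergent from YAP5) encodes the bZIP partner of Cbf1 and Met4 and is the one regulator on the list. It had the emptiest promoter of the 10 in every strain, with 0.309 in dAT and 0.296 in dSnAC, 0.353 in CD and 0.375 in dSnf2, against 0.315 in WT. The ratios of -0.02 ± 0.18 in dAT and -0.07 ± 0.19 in dSnAC, and 0.13 ± 0.15 in CD and 0.20 ± 0.17 in dSnf2 were within or near counting error of 0, while the median gene was lower in all 4 mutants. Without calls under an occupancy of 0.25 they were 0.29 in dAT and 0.07 in dSnAC, 0.44 in CD and 0.51 in dSnf2, so the sign in dAT and dSnAC rests on weak calls.

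The body of MET28 was placed differently in the strains. The first nucleosome of the gene lay at -33 bp in dAT and 9 bp in dSnAC, -37 bp in CD and -40 bp in dSnf2, against 8 bp in WT. The next lay at 187 bp in dAT and 183 bp in dSnAC, 111 bp in CD and 108 bp in dSnf2, against 181 bp in WT. The last one before the stop codon lay at 420 bp in dAT and 331 bp in dSnAC, 424 bp in CD and 421 bp in dSnf2, against 507 bp in WT. Body occupancy was 0.522 in dAT and 0.563 in dSnAC, 0.658 in CD and 0.641 in dSnf2, against 0.741 in WT. The gene is 564 bp long and holds the centres of 2 to 4 calls, so 1 call inside or outside its end weighs much in this mean. Dyad SDs reached 48.8 bp in CD and 53.2 bp in dSnf2 at the third nucleosome, against 34.6 bp at the nearest WT call.

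Over the 10 genes together, the share of dyads displaced from WT by 20 bp or more was above that of all nuclear calls. A mutant dyad and a WT dyad were paired where each was the nearest to the other, at most 73 bp apart. Of the matched dyads of the 10 genes, 24 of 126 in dAT lay 20 bp or more from WT, which is 19.0% (exact 95% binomial interval 12.6% to 27.0%), where 9.19% of all calls did. In dSnAC it was 27 of 130, or 20.8% (14.2% to 28.8%), against 8.67% of all calls. In CD it was 34 of 131, or 26.0% (18.7% to 34.3%), against 8.84%, and in dSnf2 31 of 130, or 23.8% (16.8% to 32.1%), against 9.01%. Counted from 30 bp, the shares were 9.52% in dAT (all calls 5.69%) and 8.46% in dSnAC (5.42%), 13.7% in CD (5.79%) and 15.4% in dSnf2 (6.001%), so dAT and dSnAC were then nearer to the genome. Calls of 1 gene are neighbours in an array, so these intervals treat as separate what moves together. The shares of the 4 mutants also rest on the same WT list. The displaced dyads were also unevenly spread over the genes. Of the 24 in dAT, SAM1, SAM2 and MET10 had 5 each and MET13 had 4, where MET2 and MET14 had 0. MET14 had 0 in every mutant. SAM1 had 6 in each of the other mutants, where SAM2 had 5 (dSnAC), 6 (CD) and 4 (dSnf2). How reads were divided between SAM1 and SAM2 is uncertain, and the share without these genes is not given here.

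Displacement was more frequent where dyads were scattered (16.1% of all calls with a WT dyad SD of 30 bp or more in dAT), so calls were divided by that SD, a choice made after seeing the data. Among calls with a WT dyad SD under 30 bp, the 10 genes had 8 of 65 displaced in dAT, or 12.3% (95% interval 5.47% to 22.8%). It was 8 of 67 in dSnAC, or 11.9% (5.30% to 22.2%), and 11 of 67 in CD, or 16.4% (8.49% to 27.5%). In dSnf2 it was 8 of 67, or 11.9% (5.30% to 22.2%). All calls had 2.8% in dAT and 2.5% in dSnAC, 2.32% in CD and 2.34% in dSnf2. These intervals too treat neighbouring calls as separate, and the counts are small. Among calls with an SD of 30 bp or more, the 10 genes had 26.2% in dAT (95% interval 15.8% to 39.1%, which includes the 16.1% of all calls) and 30.2% in dSnAC, 35.9% in CD and 36.5% in dSnf2, where all calls had 15.3% in dSnAC and 15.8% in CD, and 16.2% in dSnf2. Between mutants the 10 genes were nearer to the genome. Displacement of 20 bp or more was seen in 6.87% of their dyads between dAT and dSnAC (5.53% of all calls) and in 5.93% between CD and dSnf2 (4.92%). Between dAT and dSnf2 it was 11.5% (8.62%).

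In the gene bodies of the list, displaced dyads lay upstream more often than downstream. Of the matched body dyads, 15 of 78 in dAT lay upstream by 20 bp or more, as 4.6% of all body dyads did, 18 of 80 in dSnAC (4.44% of all), 20 of 80 in CD (3.13%) and 16 of 79 in dSnf2 (3.54%). SAM1, SAM2 and MET28 supplied 10 of the 15 in dAT, 9 of the 18 in dSnAC, 13 of the 20 in CD and 11 of the 16 in dSnf2. Downstream displacement was seen in 4 of 78 in dAT (4.02% of all body dyads), 3 of 80 in dSnAC (3.84%), 9 of 80 in CD (5.72%) and 8 of 79 in dSnf2 (5.53%). MET2 had median displacements downstream of 10 bp in dAT and 7 bp in dSnAC, 9 bp in CD and 7 bp in dSnf2. MET3 had 13 bp in CD and 11 bp in dSnf2 but 1 bp in dAT, with 3 of its 7 dyads upstream there, and 7.5 bp in dSnAC. MET16 had 9 bp in dAT and 14 bp in both CD and dSnf2, and 4 bp in dSnAC, where none of its 5 dyads was displaced by 20 bp.

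Body dyads of most of the 10 genes were more scattered in the mutants. The median dyad SD over body calls was larger than in WT for 7 of the 10 genes in dAT and 8 in dSnAC, 7 in CD and 8 in dSnf2, where 59.2%, 56.1%, 45% and 47.2% of genes were in the same mutants. SAM1 and SAM2 were smaller in every mutant. MET2 had 34.0 bp in dAT and 34.2 bp in dSnAC, 35.2 bp in CD and 35.3 bp in dSnf2, against 30.2 bp in WT, and MET6 had 37.1 bp, 37.4 bp, 37.7 bp and 37.6 bp in the same mutants, against 35.0 bp in WT.

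**Figure D5:**
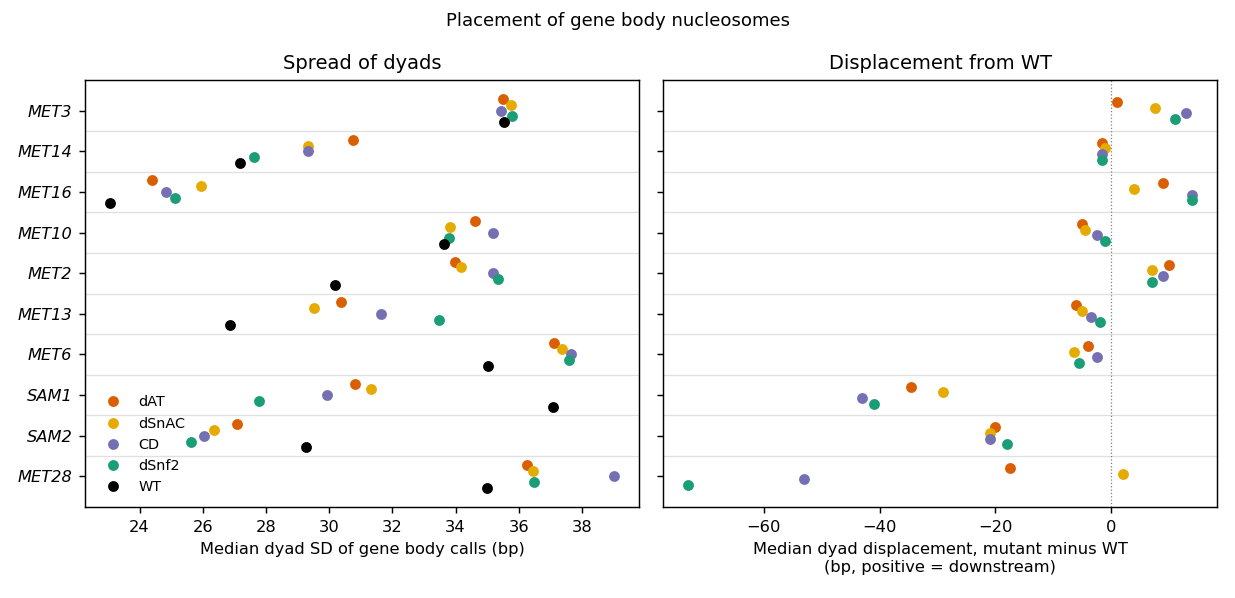
Left, median dyad SD of gene body calls in bp for each strain. Right, median displacement of body dyads, mutant minus WT, in bp with downstream positive. SAM1 and SAM2 lie to the left of 0 in all 4 mutants (SAM1 between -29 and -43 bp, SAM2 between -18 and -21 bp) and SAM1 has its largest dyad SD in WT (37.1 bp).

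The amount of single nucleosomes was compared in matched calls with an occupancy of at least 0.25 in either strain. Of those of the 10 genes, 13 of 121 in dAT were at or below -0.58, where 8.28% of all calls were, and 11 of 123 in dSnAC (4.31% of all). In CD it was 7 of 125 (1.1% of all), and in dSnf2 12 of 123 (0.489% of all). In CD, 3 of the 7 were calls of MET13 and 1 was a call of MET6. In dSnf2, 7 of the 12 were calls of MET13 and 4 were calls of MET6, and the other was the MET2 call at -688 bp. MET6 and MET13 were noticed for low promoter ratios in these lists, so nothing is read from the contrast with all calls in CD and dSnf2.

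The other genes of the pathway were read from a list of 32, of which all 32 were found. They stand for uptake, regulation, the homoserine branch and sulfur transfer. Their median promoter ratio was -0.29 in dAT and -0.24 in dSnAC, -0.15 in CD and -0.08 in dSnf2, near the median gene in each. At or below -0.58 were 7 of the 32 in dAT (11% of all genes) and 4 in dSnAC (3.76%), and 1 in CD (0.63%) and 0 in dSnf2 (0.307%). None was at or above 0.58, where 0.204% of genes were in dAT and 0.307% in dSnAC, 0.528% in CD and 0.715% in dSnf2. Named by the rule of largest departure from the median gene were CBF1, MET1, MET32, CYS4, YCT1 and MUP1.

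The regulators CBF1 and MET32, whose products hold Met4 at promoters, had their lowest promoter ratios in dAT. So did the median gene, with -0.30 in dAT and -0.23 in dSnAC, -0.15 in CD and -0.08 in dSnf2. Both were named for a large departure from the median gene, so they do not stand for the other regulators of the pathway. CBF1 had a promoter ratio of -1.04 in dAT and -0.80 in dSnAC, -0.46 in CD and -0.32 in dSnf2. MET32 had -0.90 in dAT and -0.69 in dSnAC, -0.49 in CD and -0.31 in dSnf2. MET1, which makes the sirohaem cofactor of sulfite reductase, had -0.91 in dAT and -0.74 in dSnAC, -0.59 in CD and -0.44 in dSnf2. CYS4, the cystathionine beta-synthase, was above WT in all 4, with 0.21 in dAT and 0.24 in dSnAC, 0.39 in CD and 0.46 in dSnf2. MUP1, the high-affinity methionine permease, was lower in dAT (-0.61 ± 0.19) and dSnAC (-0.54 ± 0.20), within counting error of WT in CD (0.06 ± 0.14) and higher in dSnf2 (0.33 ± 0.14). YCT1, a cysteine transporter, had 0.12 in dAT and 0.04 in dSnAC, 0.34 in CD and 0.15 in dSnf2.

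Likeness to MET6 was measured by the Euclidean distance between the 4 promoter ratios of a gene, each relative to the median gene, and those of MET6. The nearest genes with a standard name were SPO24 (0.220), FLC1 (0.235), RDI1 (0.239), HIM1 (0.263) and RIF2 (0.338). Of the list, MET2 (0.338), MET3 (0.356) and MET13 (0.437) were the nearest, and MET28 (1.51) and SAM1 (1.23) the farthest. MET6 and MET13 were both noticed for low promoter ratios in CD or dSnf2, which are among the ratios used for this distance. The nearness of MET13 is therefore in part fixed by that choice. The measure rests on 4 ratios that share 1 WT list.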

How the data were processed

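MNase-seq reads of 14 samples were aligned by the authors with Bowtie to sacCer3, per the submitters' processing notes. The caller of the nucleosomes was not given in the sources used here. Deposited per strain was 1 list of calls on merged replicates, per the labels. Occupancy is a coverage signal of the authors, on a scale not given in the sources used here. All values in a list were whole multiples of the smallest one (tolerance 0.01), which was read as 1 read. Positions and SDs are in bp, per the file headers, and the deposited fraction for conditional position was not used here.

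Genes came from a RefSeq table of R64, with strand from the systematic name. Of 6002 nuclear genes, 131 within 10000 bp of a chromosome end were left out. Occupancies were divided by the median call outside the ribosomal DNA (chromosome XII, 451000 to 469000). A replicate number pairs nothing here, and intervals cover counting error only, at 95%. Those given with ± for log2 ratios are normal approximations from read numbers. Those of reads in single calls are exact Poisson, and those of shares are exact binomial. Matching and ratios were tested on simulated data, with Python 3.11.15, numpy 2.4.6, pandas 2.3.3 and scipy 1.17.1. Alternatives changed the pseudocount, window, weak calls, footprint, centring, match distance and displacement.

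All 10 genes are named. Of 32 other pathway genes, up to 6 with the largest departure from the median gene and an occupancy of at least 0.25 are named, with the 5 genes nearest to MET6 and, within each of the 10 genes, its most different call. Calls named beyond that rule were chosen after their values were seen. The members and lists were chosen with earlier results of these data known. A search for binding motifs was not run, since no sequence was used here.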

Additional observations from a re-analysis of the deposited data

How the results depend on the processing

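No paired analysis was possible because each strain has 1 pooled list with no replicate columns, so no replicate could be left out either. The sign of the 40 promoter ratios (10 genes in 4 mutants) was kept in 36 to 40 of 40 under other pseudocounts, windows, weak call filters and footprints, and in 34 when centred on the median gene. Centred in that way, the median promoter ratio of the 10 genes was -0.14 in dAT, -0.13 in dSnAC and -0.25 in CD. The number of the 10 at or below -0.58 rested on the settings. With a pseudocount of 0.25 it was 2 in dAT and 0 in dSnAC, 1 in CD and 1 in dSnf2, since a larger pseudocount shrinks every ratio. Centred on the median gene it was 0 in dAT and 0 in dSnAC, 0 in CD and 1 in dSnf2 (all genes: 66, 28, 12 and 7 of 5871). With a window from -500 bp it was 0 in dSnAC and 2 in CD, and from -200 bp 2 in CD. The cause was not tested. Without MET6 and MET13, a choice made after seeing the data, the number was 2 in CD and 1 in dSnf2. The shares of all genes with the other pseudocount and windows are not given here, so those counts are not set against the genome.

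The share of displaced dyads with a match distance of 40 bp was 12.1% in dAT, 18.5% in CD and 15.4% in dSnf2 (all calls 5.79%, 5.31% and 5.37%). Counting from 30 bp it was 9.52% in dAT and 8.46% in dSnAC, 13.7% in CD and 15.4% in dSnf2 (all calls 5.69%, 5.42%, 5.79% and 6.001%). Dividing calls by a WT dyad SD of 30 bp, also chosen after seeing the data, gave 12.3% in dAT and 11.9% in dSnAC, 16.4% in CD and 11.9% in dSnf2 under it, and 26.2% in dAT and 30.2% in dSnAC, 35.9% in CD and 36.5% in dSnf2 at or over it (all calls 16.1%, 15.3%, 15.8% and 16.2%). Calls under an occupancy of 0.25, which hold few reads and have the widest counting intervals, numbered 15 in dAT, 13 in dSnAC, 13 in CD, 12 in dSnf2 and 8 in WT, and the MET28 promoter rests on them.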

Other observations

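By its systematic name, MET14 is the gene next to the centromere on the left arm of chromosome XI, and VPS1, its upstream neighbour at 1222 bp, is on the right arm, with the centromere between them. In that stretch a call at chromosome XI, 440180 or 440181, was among the most sharply set of its list in every strain. Its dyad SD was 6.38 bp in dAT and 6.73 bp in dSnAC, 7.60 bp in CD and 8.33 bp in dSnf2, against 8.88 bp in WT. Only 5 of 60658 calls of at least 0.25 in dAT, 4 of 60825 in dSnAC, 5 of 61086 in CD, 8 of 60995 in dSnf2 and 9 of 61056 in WT, this one included, were as sharp as it. Its occupancy was 1.85 in dAT and 1.66 in dSnAC, 1.44 in CD and 1.52 in dSnf2, against 1.49 in WT. The next call outward from MET14, at -991 bp, held 0.493 in dAT and 0.623 in dSnAC, 0.858 in CD and 1.12 in dSnf2, against 1.21 in WT. No centromere coordinates were used here.

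Neighbouring calls of the 10 genes stood within 2 bp of the smallest spacing of any list, 148 bp, in 21.1% of spacings in dAT and 20.9% in dSnAC, 19.5% in CD and 15.0% in dSnf2, against 11.1% in WT. Over all calls the shares were 16.0% in dAT and 15.1% in dSnAC, 12.9% in CD and 12.2% in dSnf2, against 11.8% in WT.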
